A study of Mus musculus with 8 samples.

Results

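Sarcomere genes encode the parts of the contractile unit of striated muscle, and 10 of them are described here in endothelial and hematopoietic cells of the mouse aorta: Acta1, Actc1, Tnnc1, Tnnt1, Tnnt2, Tnni1, Myl1, Myl4, Ttn and Des. They are 10 of the 24015 genes of the deposited count table. They were picked because their counts had been seen to be high in the libraries of Sl/Sl hematopoietic clusters, so their levels in those libraries are given as a description, without a test. Those counts do not spread evenly over the Sl/Sl cluster libraries. Actc1 was high in both of them, and most of the other members were high in replicate 2.

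In a sarcomere, thin filaments of actin slide along thick filaments of myosin. The troponin complex on the thin filament (the calcium-binding, inhibitory and tropomyosin-binding subunits) lets this sliding answer to calcium, titin ties the thick filament to the Z-disc, and desmin links neighbouring Z-discs outside the sarcomere. Embryonic heart and skeletal muscle share many of these genes, since several isoforms are used in both tissues before birth. Endothelial and hematopoietic cells build no sarcomeres.

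The libraries came from the E11.5 aorta-gonad-mesonephros region with its vitelline and umbilical arteries (AGM+VU). Wild type embryos were compared with Sl/Sl embryos, which are homozygous for a deletion that encompasses the Steel locus and so lack Kitl, the ligand of the receptor Kit. Hematopoietic clusters were sorted as Ter119- VE-Cadherin+ c-Kit+ cells, and endothelium as Ter119- VE-Cadherin+ cells without c-Kit, CD41 or CD45. Clusters and endothelium of both genotypes make 4 groups, with 2 libraries of 100 cells in each, on a C57BL/6 background. Pools of 1 to 4 embryos of a genotype were sorted, over 2 sorting experiments, and which embryos and sort gave which library is not stated, so p-values measure the spread between libraries only. SMARTSEQ2, the library method, amplifies whole transcripts by PCR without molecular identifiers, so that intervals and floors cover only the error of counting.

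The 8 libraries held 8933236 to 13428214 counts on genes, and 12844 to 14309 genes were detected in each. Kitl, the gene that the deletion removes, was counted 1250 and 923 times in wild type endothelium, against 6 and 2 times for Sl/Sl. The wild type clusters had 110 and 0 counts of it, against 1 and 3 for Sl/Sl, so that this gene cannot tell wild type clusters replicate 2 from Sl/Sl. Cd53, a tetraspanin of leukocytes, had 1753 to 8591 counts in the 4 cluster libraries and 13 to 40 in the 4 endothelium libraries. Replicates 1 and 2 of the Sl/Sl clusters differed: 339 of 13908 tested genes (2.44%) were at least 10 times higher in replicate 2. This used counts scaled to a total of 1000000 (CPM) plus 1, and 69 genes were at least 10 times lower. Gaps of that size were not confined to this pair. Wild type endothelium replicate 1 was that far above its partner for 346 genes and that far below it for 180. Among the Sl/Sl endothelium, replicate 1 led by that much for 223 genes and replicate 2 for 209. The wild type clusters showed it for 135 genes higher in replicate 1 and 159 higher in replicate 2. The members' fold changes that rest on Sl/Sl clusters replicate 2 are given with and without it.

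The regulatory sequence of both striated actins is shown because these genes differed in where they were high. Each line below holds the 250 bases upstream of the transcript start given by RefSeq (GRCm38.p6), found once, without a mismatch, on the chromosome of the NCBIM37 (mm9) genome. Acta1 lies at chr8:126418676-126418925 and Actc1 at chr2:113878612-113878861, both on the minus strand. Capitals mark a CArG box, the sequence that serum response factor recognises.
Acta1: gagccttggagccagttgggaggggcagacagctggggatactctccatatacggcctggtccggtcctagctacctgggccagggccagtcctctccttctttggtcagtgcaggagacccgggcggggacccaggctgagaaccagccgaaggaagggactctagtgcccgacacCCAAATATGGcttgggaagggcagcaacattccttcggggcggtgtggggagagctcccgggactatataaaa
Actc1: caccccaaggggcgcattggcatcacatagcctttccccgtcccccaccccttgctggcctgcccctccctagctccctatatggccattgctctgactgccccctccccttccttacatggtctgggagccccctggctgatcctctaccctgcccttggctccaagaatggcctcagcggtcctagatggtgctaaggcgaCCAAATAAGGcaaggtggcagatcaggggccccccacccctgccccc
The box ended 64 bases before the start in Acta1 and 38 bases before it in Actc1. A CArG box on either strand was found in 2 of the 10 members, or 2 of their 12 RefSeq promoters. It was in 1.47% of all 32851 RefSeq promoters of the same length. The match describes these letters only, and binding was not measured.

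A MEF2 site, the sequence recognised by myocyte enhancer factors, was found in 1 member, Ttn (1 of 12 member promoters), and in 2.92% of all promoters. It is in capitals in the 250 bases upstream of Ttn (chr2:76820605-76820854, minus strand), which are shown because the counts of Ttn differed widely between the replicates of both Sl/Sl groups.
Ttn: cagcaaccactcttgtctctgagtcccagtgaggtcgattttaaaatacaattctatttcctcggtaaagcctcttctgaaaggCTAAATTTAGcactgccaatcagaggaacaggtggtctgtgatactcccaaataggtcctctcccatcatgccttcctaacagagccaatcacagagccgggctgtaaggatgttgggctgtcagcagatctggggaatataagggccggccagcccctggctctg
The E-box CAGCTG, bound by myogenic factors such as MyoD, was in the promoters of 5 members (Acta1, Tnnt2, Tnni1, Myl1 and Des). These were 6 of 12 member promoters, against 13.0% of all promoters, and the promoters of Tnni1 overlap and share 1 match. The letters CATTCC, bound by TEAD factors, were in those of 4 members (Acta1, Tnnc1, Tnnt2 and Myl1), 4 of 12 promoters, against 12.6%. Both were searched on either strand, and neither overlaps the CArG box in the members.

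Acta1 and Actc1 encode nearly identical proteins, so their reads could in principle be mixed up. Their coding sequences, of 1134 bases each, were identical at 86.2% of positions and differed at 157. No 75-base word, the length of a read, was shared between the exons of Actc1 and any other gene of the table. Acta1 shared 3 of its 1497 words with Actb, the cytoplasmic beta-actin, which had 40095 to 56377 counts in every library. Des shared 150 of 2991 words with Gm15179, a gene at 0 counts in all 8 libraries, and the other 7 members shared none.

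Actc1 (mm9 chr2:113873025-113878547, minus strand, 7 listed exons), the main sarcomeric actin of the heart and also of embryonic skeletal muscle, was the member with the highest level per length in both Sl/Sl cluster libraries. It had 61 and 162 counts in wild type clusters, 4078 and 4692 in Sl/Sl clusters, 247 and 250 in endothelium of wild type embryos, and 7 and 115 in that of Sl/Sl embryos. Both Sl/Sl cluster libraries were far above the other 6. Mean levels were 345 ± 6.43 CPM (SD, n = 2) in Sl/Sl clusters, 21.5 ± 3.23 in the endothelium of wild type embryos, 9.29 ± 5.11 in wild type clusters and 6.73 ± 8.69 in Sl/Sl endothelium. The lowest 2 groups in that order overlapped, and Sl/Sl endothelium replicate 2 lay close to wild type clusters replicate 2, at 12.9 CPM each. The 2 Sl/Sl cluster libraries differed by 1.03-fold, which was the smallest gap between these replicates of any member.

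Acta1 (chr8:126415658-126418675, minus strand, 8 listed exons), the actin of adult skeletal muscle, had a different pattern. Its counts were 0 and 2 in wild type clusters, 1 and 3078 in Sl/Sl clusters, 11 and 29 in endothelium of wild type embryos, and 150 and 5 in that of Sl/Sl embryos. Sl/Sl clusters replicate 2 alone held 94.0% of all counts of the gene. Replicate 1, with 1 count, was within the range of the wild type clusters. The CPM ratio of replicate 2 to replicate 1 was 2747, with an exact 95% counting interval from 493 to 108525.

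The next members form the troponin complex. Tnnc1 (chr14:32021498-32024897, plus strand, 6 listed exons) encodes the calcium-binding troponin C of heart and slow skeletal muscle. It had 39 and 2 counts in wild type clusters, 28 and 2256 in Sl/Sl clusters, 248 and 21 in endothelium of wild type embryos, and 50 and 39 in that of Sl/Sl embryos. In Sl/Sl clusters replicate 2 its CPM was 71.9 times that of replicate 1, and replicate 1 lay between the wild type cluster libraries. Only the Sl/Sl endothelium libraries were close to each other for this gene, at 4.28 ± 0.117 CPM (SD, n = 2).

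Tnni1 (chr1:137695998-137707566, plus strand, 10 listed exons), the inhibitory subunit of slow skeletal muscle that the embryonic heart also uses, was present in most libraries. Its counts were 81 and 530 in wild type clusters, 195 and 2190 in Sl/Sl clusters, 189 and 286 in endothelium of wild type embryos, and 2 and 223 in that of Sl/Sl embryos. Replicate 2 of the Sl/Sl clusters was 10.02 times replicate 1 on CPM, and replicate 1 was below wild type clusters replicate 2. The wild type cluster libraries themselves were 7.53 and 42.2 CPM.

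Tnnt1 (chr7:4456172-4467577, minus strand, 14 listed exons), the tropomyosin-binding subunit of slow skeletal muscle, was the member whose libraries differed least outside Sl/Sl clusters replicate 2. It had 72 and 322 counts in wild type clusters, 226 and 924 in Sl/Sl clusters, 121 and 262 in endothelium of wild type embryos, and 86 and 175 in that of Sl/Sl embryos. Group means ran from 13.4 ± 8.74 CPM in Sl/Sl endothelium through 16.2 ± 13.4 and 17.2 ± 11.0 in wild type clusters and endothelium to 43.8 ± 35.3 in Sl/Sl clusters (SD, n = 2 each). All 4 ranges overlapped.

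Tnnt2 (chr1:137732911-137748845, plus strand, 16 listed exons), the cardiac counterpart of Tnnt1, was the member whose highest library was not a cluster library. It had 0 counts in both wild type cluster libraries, 3 and 40 in Sl/Sl clusters, 19 and 85 in endothelium of wild type embryos, and 113 and 33 in that of Sl/Sl embryos. A count of 0 allows up to 3 counts. The lowest endothelium library, at 1.48 CPM, was above 3 of the 4 cluster libraries.

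Of the myosin light chains, Myl1 (chr1:66970870-66991630, minus strand, 9 listed exons), the essential chain of fast skeletal muscle, was seen almost only in Sl/Sl clusters replicate 2. Its counts were 0 and 12 in wild type clusters, 0 and 1190 in Sl/Sl clusters, 5 and 0 in endothelium of wild type embryos, and 0 and 98 in that of Sl/Sl embryos. Against a floor of 3 counts in replicate 1, replicate 2 of the Sl/Sl clusters was at least 354-fold higher. Myl4 (chr11:104411977-104448533, plus strand, 9 listed exons), the essential light chain of the atrium and of embryonic muscle, had 51 and 60 counts in wild type clusters, 38 and 434 in Sl/Sl clusters, 143 and 166 in endothelium of wild type embryos, and 228 and 25 in that of Sl/Sl embryos. Both wild type groups were tight for Myl4, at 4.76 ± 0.0243 CPM in clusters and 13.5 ± 3.30 in endothelium (SD, n = 2), and Sl/Sl clusters replicate 1, at 3.17 CPM, was below both wild type cluster libraries.

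Ttn (chr2:76542041-76820604, minus strand, 314 listed exons), which encodes the giant protein titin, had 21 and 7 counts in wild type clusters, 38 and 590 in Sl/Sl clusters, 5 and 0 in endothelium of wild type embryos, and 199 and 2 in that of Sl/Sl embryos. With 104320 bases of exons, even 590 counts made only 0.421 reads per kilobase and per 1000000 counts (RPKM). Des (chr1:75356867-75365154, plus strand, 9 listed exons), the intermediate filament protein desmin of all muscle types, had 0 and 20 counts in wild type clusters, 1 and 173 in Sl/Sl clusters, 10 and 0 in endothelium of wild type embryos, and 0 and 60 in that of Sl/Sl embryos. Des had a library at 0 or 1 count in each of the 4 groups, and Ttn in wild type endothelium.

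**Figure D1:**
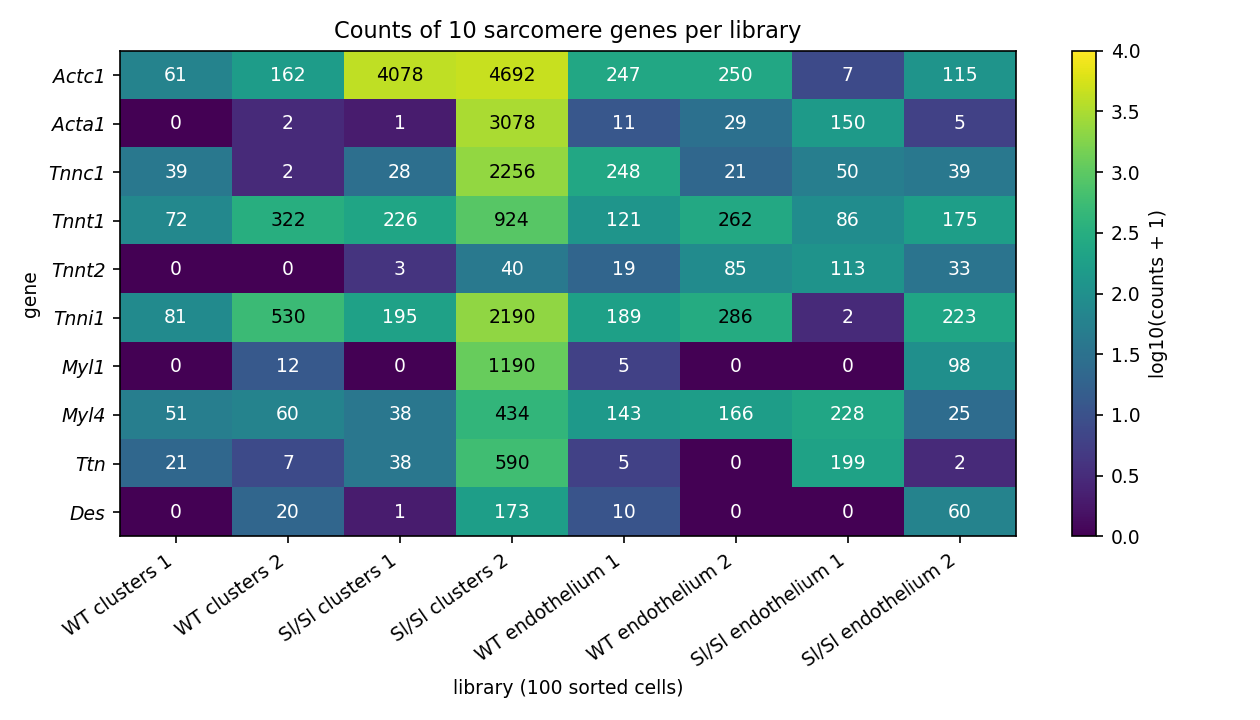
Counts of the 10 sarcomere genes (vertical axis) in the 8 libraries (horizontal axis, WT standing for wild type); each cell prints the count, and its colour is log10(counts + 1). Actc1 is high in both Sl/Sl cluster libraries, at 4078 and 4692, whereas Acta1 has 1 and 3078 counts there and Myl1 has 0 and 1190.

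Per length, the members of Sl/Sl clusters replicate 2 were led by Actc1 at 251 RPKM and Tnnc1 at 239, followed by Tnni1 and Acta1 at 146 each, Myl1 at 79.8, Tnnt1 at 66.8 and Myl4 at 36.6. Des (4.20), Tnnt2 (2.38) and Ttn (0.421) were lowest there. In Sl/Sl clusters replicate 1 Actc1 was at 245 RPKM, and the next member, Tnnt1, at 18.3. Actc1 supplied 4078 of the 4608 counts of all 10 members in replicate 1 and 4692 of 15567 in replicate 2. In other words, the other 9 members summed to 44.2 CPM in replicate 1 and 810 CPM in replicate 2, against 24.6 and 76.0 CPM in wild type clusters and 58.5 to 80.9 CPM in the 4 endothelium libraries.

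Of the 10 members, 9 were highest of all 8 libraries in Sl/Sl clusters replicate 2, and Tnnt2 was highest in Sl/Sl endothelium replicate 1. Over all tested genes, 13.3% were highest in that cluster library. The members were picked on these libraries, so nothing is read from that count. On CPM plus 1, 5 members (Acta1, Tnnc1, Myl1, Ttn and Des) were at least 10 times higher in replicate 2 than in replicate 1 of the Sl/Sl clusters. Across the other groups such gaps were seen in Sl/Sl endothelium only, where Ttn was 10 times higher in replicate 1, and Tnni1 and Myl1 in replicate 2. Over the 45 pairs of members, Pearson correlations of log2(CPM + 1) across the 8 libraries had a median of 0.48 and ran from -0.26 to 0.97. These libraries share groups, and 1 of them is far above the rest, so the correlations only describe this set.

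The comparison of Sl/Sl with wild type clusters asks what the loss of Kitl does to the emerging hematopoietic cells. All 10 members had a positive fitted log2 fold change, from 1.41 for Tnnt1 to 10.20 for Acta1, with a median of 4.72 against 0.03 over all 13908 genes tested. Put at its lower bound of 2.64 (at least 6.24-fold higher, against a floor of 3 counts per library in wild type), Tnnt2 brought this median to 3.59. No test is given for these values, since the members were chosen on them. All 10 members passed the filter on low counts, and 10 also passed it without Sl/Sl clusters replicate 2.

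Without replicate 2 of the Sl/Sl clusters the median of the members was 0.15, and 6 were positive and 4 negative. Actc1 was at 5.22 without it and 5.21 with it. Acta1 went from 10.20 to 0.05, Tnnc1 from 5.51 to 0.39, Tnnt1 from 1.41 to 0.25, and Ttn from 4.23 to 1.398. Tnni1 (-0.59), Myl4 (-0.54), Des (-3.09) and Myl1 (-5.44) became negative. The last 2 of these values come from 1 and 0 counts in replicate 1, and Tnnt2, at 4.54, from 3 counts against 0 and 0, so their size depends on the prior count of the fit.

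**Figure D2:**
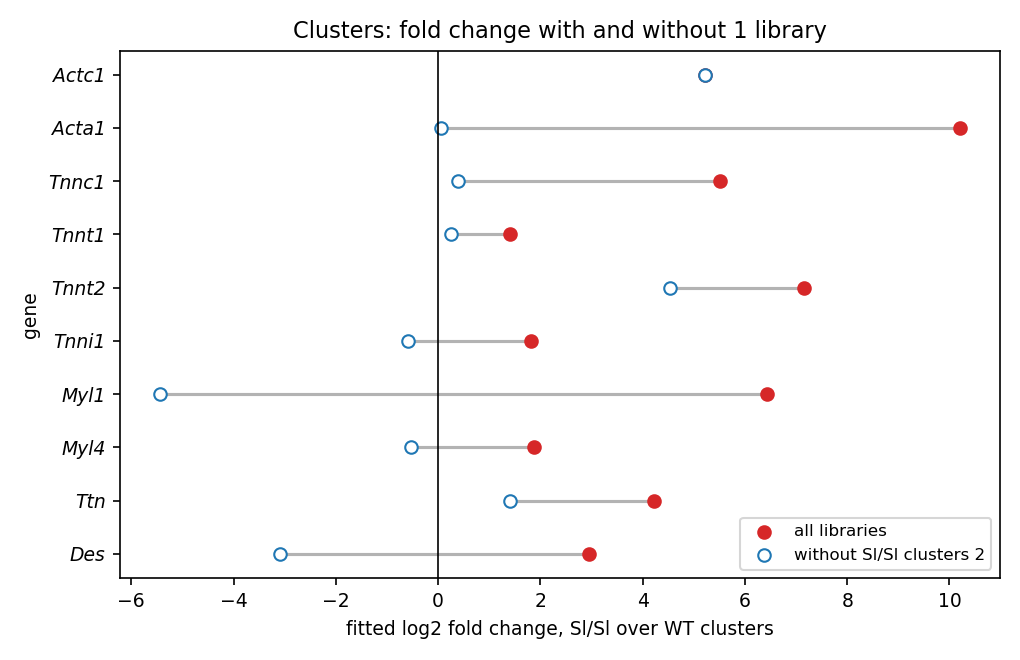
Fitted log2 fold changes of Sl/Sl over wild type (WT) clusters (horizontal axis) for the 10 sarcomere genes (vertical axis), with all 8 libraries (filled) and without Sl/Sl clusters replicate 2 (open); no error or test is shown because the members were chosen on these libraries. Actc1 stays at 5.22, where its symbols coincide, whereas Tnni1, Myl1, Myl4 and Des cross 0.

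Both Sl/Sl cluster libraries were above both wild type cluster libraries for 3 members, Actc1, Tnnt2 and Ttn. Over all genes tested this held for 16.5%, and the opposite order, which no member showed, held for 16.3%. Since the choice of members used these libraries, the 3 are given as a count only. With edgeR's quasi-likelihood test, 0 of 13908 genes (0%) passed a Benjamini-Hochberg adjusted p of 0.1 in this comparison, where 587 had an unadjusted p under 0.05 and DESeq2 called 175.

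Markers of other cells also differed between the Sl/Sl cluster libraries, some of them higher in replicate 2 and some lower. The 10 mesenchymal markers (collagens, Pdgfra, Lum and others, expressed by connective tissue cells) summed to 34.2 CPM in replicate 1 and 4843 CPM in replicate 2, against 817 and 1070 CPM in wild type clusters. All 10 were detected in both Sl/Sl cluster libraries. Lum, a proteoglycan of connective tissue, had 34 and 16718 counts there, and Col1a1, named after its values were seen, 60 and 7530. The 12 endothelial markers moved the other way, from 2957 CPM in replicate 1 to 829 in replicate 2, against 1364 and 433 CPM in wild type clusters. Replicate 2 was thus within the wild type range for them, and replicate 1 above it. The 12 hematopoietic markers were at 1840 and 2370 CPM, against 2323 and 3301 CPM in wild type clusters. In the endothelium libraries, also sorted as VE-Cadherin+ cells, the mesenchymal markers summed to 82.9 to 1415 CPM. The part of connective tissue cells in the members' counts was not tested. In such bulk samples more cells of a type and more RNA per cell cannot be told apart.

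**Figure D3:**
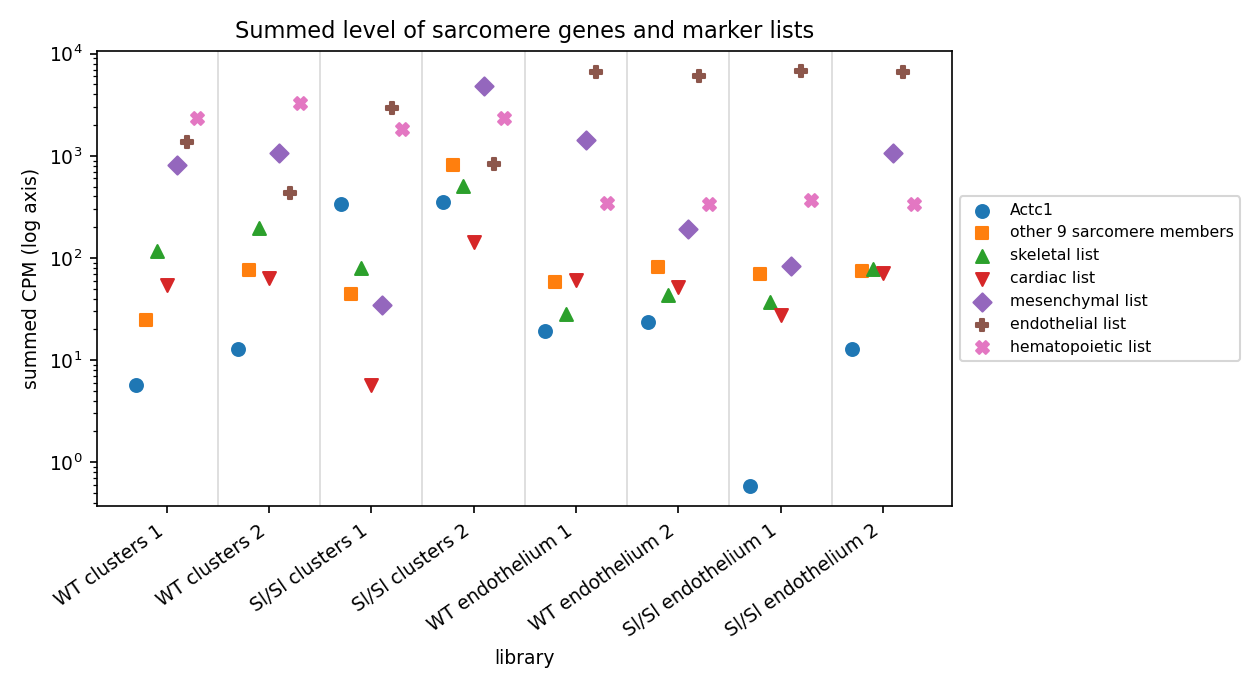
Summed CPM (vertical axis, log scale) in each of the 8 libraries (horizontal axis, WT standing for wild type) of Actc1, of the other 9 sarcomere genes and of 5 marker lists. In Sl/Sl clusters replicate 2 the other 9 genes reach 810 CPM and the mesenchymal list 4843, against 44.2 and 34.2 in replicate 1, whereas Actc1 is at 349 and 340.

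Other muscle genes were also highest in replicate 2 of the Sl/Sl clusters. Of 98 further genes on the 4 lists of striated muscle, 83 had a count in some library, and 46 of these were highest there, as were 4 of 14 muscle transcription factors and 8 of 12 smooth muscle genes. Of all genes with a count, 15% were highest there. At least 20 counts there and at most 5 in any other library were seen for 20 striated genes, 1 transcription factor and 0 smooth muscle genes, against 1.78% of all genes with a count. The lists were drawn up knowing these libraries, so the shares are a description. The striated genes included Tnnc2, the fast skeletal troponin C (1382 counts there and 2 elsewhere), Sln, a regulator of the calcium pump of atrium and embryonic muscle (605 there and 4 elsewhere), and, named after their values were seen, the embryonic myosin Myh3 (590), the perinatal myosin Myh8 (181), myoglobin Mb (185), the fetal acetylcholine receptor subunit Chrng (77) and the myogenic factor Myf6 (60). Mylpf, a fast skeletal light chain, had 143 counts in replicate 1, 1564 in replicate 2, and 249 and 605 in wild type clusters. Tpm1, a tropomyosin that non-muscle cells also use, had 2419 and 6993 counts in the Sl/Sl clusters and 1596 to 4331 in the other libraries.

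The cardiac and skeletal lists can be set beside each other in that library. The 24 skeletal genes summed to 506 CPM with 20 detected, against 79.9 CPM in replicate 1 and 116 and 198 CPM in wild type clusters. The 18 cardiac genes summed to 144 CPM with 14 detected, against 5.76 CPM in replicate 1 and 54.7 and 64.1 CPM in wild type clusters. Of the 3 most abundant cardiac genes per length, Sln had 605 counts there and 0 in the other cluster libraries. Tnni3, the cardiac inhibitory troponin, had more counts in wild type clusters (79 and 565) than in Sl/Sl clusters (3 and 134), although these ranges overlapped. Myl7, the atrial regulatory light chain, had 54 counts in that library and was highest in wild type endothelium replicate 1, at 434. Among cardiac genes named after their values were seen, Tbx20 had 338 counts in Sl/Sl clusters replicate 2. Hand1 had 244 there, Hand2 234, Gata4 213, Myh6 26 and Nkx2-5 2. Tbx20 also had 194 and 118 counts in wild type clusters, and Gata4 had 122 in wild type endothelium replicate 2. Hand1 and Myh6 were higher in Sl/Sl endothelium replicate 2, at 11.0 and 1.05 RPKM against 9.57 and 0.319. Mybpc3 and Ryr2, named likewise, had 0 and 6 counts in Sl/Sl clusters replicate 2, against 68 and 79 in wild type clusters replicate 1. Of the genes with a count, 7 of 17 cardiac and 15 of 21 skeletal ones were highest in that library, against 15% of all genes. Of the skeletal list Pax3, Pax7, Myog and Chrnd were at 0 in all 4 cluster libraries, as were Nppb, Hcn4 and Pln of the cardiac list.

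Smooth muscle genes, which lie outside the sarcomere, were above both wild type cluster libraries in both Sl/Sl ones for 4 of 11 tested, against 16.5% of all genes. Acta2, the actin of smooth muscle, had 1647 and 1524 counts in wild type clusters, 4483 and 10649 in Sl/Sl clusters, 5163 and 1380 in endothelium of wild type embryos, and 5100 and 1610 in that of Sl/Sl embryos. Its log2 fold change between the clusters was 2.09 ± 0.57 (SE), with an edgeR adjusted p of 0.69, whereas DESeq2 called it. This list too was drawn up knowing these libraries, so the values are a description. Myl9, a light chain of smooth muscle, had 1031 and 2998 counts in the wild type clusters and 3267 and 8435 in the Sl/Sl ones. Actg2, the enteric smooth muscle actin, was at 46 counts in replicate 1 and 3122 in replicate 2 of the Sl/Sl clusters.

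The comparison of Sl/Sl with wild type endothelium did not enter the choice of members and could be tested. In edgeR's quasi-likelihood test none of the 10 members passed the threshold, and 0 of all 13908 genes did (0%). Unadjusted p-values were under 0.05 for 580 genes and for 0 members, and DESeq2 called 178 genes and 0 members. The members' log2 fold changes ran from -1.67 to 5.36 with a median of 0.08, against 0.00 over all genes, and 5 were positive and 5 negative. An exact permutation test with 2 libraries in each group has a smallest possible p of 0.333.

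Actc1 was the only member whose endothelium groups did not overlap, and the direction was opposite to that in clusters. It was at 21.5 ± 3.23 CPM in wild type and 6.73 ± 8.69 in Sl/Sl (SD, n = 2), a log2 fold change of -1.67 ± 0.97 (SE) with an edgeR adjusted p of 1. Over all genes both Sl/Sl libraries were below both wild type ones for 15.3% and above them for 13.0%. The 2 Sl/Sl libraries differed among themselves, at 0.588 and 12.9 CPM.

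The largest positive values in Sl/Sl endothelium came from single libraries. Ttn had a log2 fold change of 5.36 ± 2.39 (SE, edgeR adjusted p = 1), with 199 counts in replicate 1 and 2 in replicate 2. For Myl1 the value was 4.74 ± 3.19 and for Des 3.12 ± 3.35, and both had 0 counts in replicate 1. Within that group 4 members (Acta1, Tnnt2, Myl4 and Ttn) were higher on CPM in replicate 1, in which the mesenchymal markers summed to 82.9 CPM, and 6 (Actc1, Tnnc1, Tnnt1, Tnni1, Myl1 and Des) in replicate 2, in which they summed to 1063 CPM. The endothelial markers were at 6704 CPM in replicate 1 and 6677 CPM in replicate 2, and what part other cells had in the members' counts was not tested. Skeletal genes summed to 37.3 and 77.5 CPM and cardiac genes to 27.6 and 70.5 CPM in Sl/Sl endothelium, against 28.1 and 43.6 CPM and 51.8 and 61.3 CPM in wild type endothelium.

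Wild type endothelium was also compared with wild type clusters, to ask where the members were found without the mutation. Of 13908 genes 1146 (8.24%) passed the threshold in edgeR's test, 634 higher and 512 lower in endothelium. None of the 10 members passed it, 1 had an unadjusted p under 0.05, and the median of their log2 fold changes was 0.76 against 0.00 over all genes, with 6 positive and 4 negative. The member with the smallest p was Tnnt2, at 4.79 ± 4.68 CPM in endothelium (SD, n = 2) and 0 counts in both cluster libraries, which makes it at least 18.5-fold higher against a floor of 3 counts per library. Its p was 0.0144 and its adjusted p 0.139 in edgeR, and DESeq2 called it with an adjusted p of 0.00598; over its 10 alternatives the adjusted p ran from 0.00598 to 0.344.

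Both wild type endothelium libraries were above both wild type cluster libraries for 4 members, Acta1, Actc1, Tnnt2 and Myl4, where 22.0% of all genes showed this order. Both were below for Ttn, where 29.0% of all genes showed that order. Log2 fold changes were 4.37 ± 2.76 (SE) for Acta1, with 2 counts in all in the clusters, 1.32 ± 0.95 for Actc1 and 1.63 ± 1.31 for Myl4. Their adjusted p-values in edgeR were 0.416, 0.474 and 0.532. For Tnnc1 the value was 2.64 ± 1.78, and the groups overlapped, since wild type endothelium replicate 1 had 248 counts and replicate 2 had 21. The mesenchymal markers summed to 1415 and 190 CPM in these 2 libraries, and their part in the Tnnc1 counts was not tested. Tnnt1 (0.20 ± 0.98) and Tnni1 (-0.14 ± 1.57) were close to 0 with wide errors, which does not show equal levels.

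**Figure D4:**
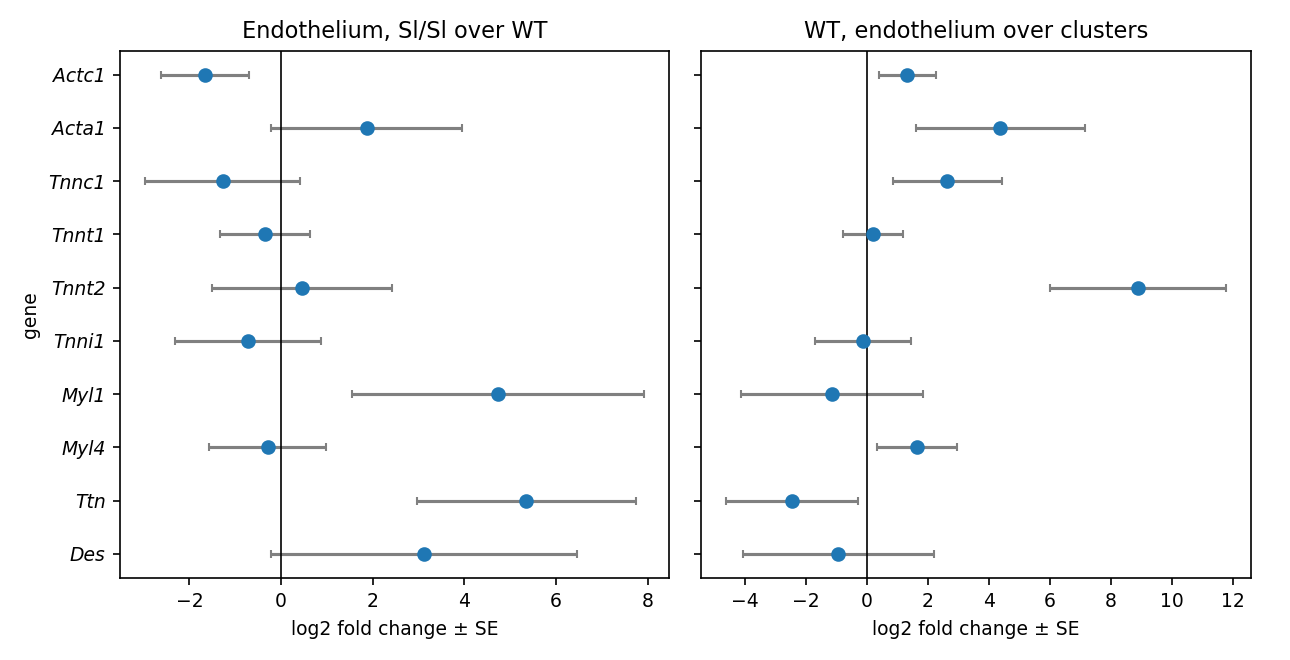
Fitted log2 fold changes with SE (horizontal axis) of the 10 sarcomere genes (vertical axis) in Sl/Sl over wild type (WT) endothelium, left, and in wild type endothelium over wild type clusters, right, from 2 libraries a group. Ttn reaches 5.36 on the left and Tnnt2 8.88 on the right, where its fitted value rests on clusters at 0 counts, and no member passed the threshold in either panel.

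The wider muscle lists were looked at in the same comparisons. In both genotype comparisons 0 genes of the 6 muscle lists passed the edgeR threshold, as did 0 of all 13908 genes tested. DESeq2 called Neb, Myh3, Tnnc2, Sln, Tmem8c and Acta2 as higher in Sl/Sl clusters. The lists were drawn up knowing these libraries, so the cluster calls are a description. Myh3, Tnnc2 and Sln had 0 counts in every cluster library except Sl/Sl clusters replicate 2. DESeq2 called Myh3, Myom1, Tnnc2 and Sln as lower in Sl/Sl endothelium. In endothelium Myh3, Tnnc2 and Sln had at most 4 counts in any library. Genes outside the naming rule are named here for these calls. Between the wild type cell types edgeR called 8.24% of all genes. Of 21 tested genes of the other sarcomere list it called 1, Tnni2, the fast skeletal inhibitory troponin. Tnni2 was lower in endothelium by a log2 fold change of -4.66 ± 1.25 (edgeR adjusted p = 0.0725) and is also the 1 call among 10 tested skeletal genes. It had 962 and 1580 counts in wild type clusters, 665 and 1259 in Sl/Sl clusters, 100 and 1 in endothelium of wild type embryos, and 32 and 23 in that of Sl/Sl embryos. So this troponin was found in all cluster libraries, unlike its partner Tnnc2. The cardiac list (10 tested) and the calcium and energy list (12 tested) had 0 calls in edgeR. DESeq2, which called 2613 genes between the wild type cell types, called 4 (Myl7, Nppb, Gata4 and Sln) and 5 (Casq1, Sln, Cox6a2, Eno3 and Pygm). Of the other sarcomere list DESeq2 called 4 genes higher and 2 lower in endothelium, and of the skeletal list 3 higher and 1 lower. Myh3 and Tnnc2 were among the calls on both of these lists. Its calls were not limited to the genes tested in edgeR, and Sln was not tested there. The only Sln reads from either wild type group were the 4 counted for endothelium replicate 1. Of the most abundant genes per length on the calcium and energy list, the calcium pump Atp2a2 had 890 to 2938 counts over the 8 libraries. The respiratory chain subunit Cox7a1 had 20 to 150 counts.

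Muscle transcription factors had 4 edgeR calls among 13 tested between the wild type cell types, where 8.24% of all genes were called. Mef2a, at 535 to 2176 counts in all libraries, was called by DESeq2 only. Tcf15 (3.48 ± 0.96, adjusted p = 0.0796), Tead1 (2.58 ± 0.75, 0.0925) and Isl1 (2.23 ± 0.61, 0.0789) were higher in endothelium, and Mef2c was lower (-1.44 ± 0.26, 0.0175), as edgeR log2 fold changes ± SE. Tead1, Isl1 and Smtn are named after their values were seen. Of 11 smooth muscle genes Smtn was called, higher in endothelium. For comparison, 7 of 12 endothelial markers were called higher and 10 of 12 hematopoietic markers lower. Also lower were 4 of 8 macrophage markers and, of the 4 tested germ cell markers, Kit. The hematopoietic calls included Kit as well, and Ptprc, named here because it encodes CD45. Endothelium was sorted without c-Kit and CD45, so these calls follow from the sort. The mesenchymal (10 tested) and erythroid (6 tested) lists had 0 calls in edgeR, and DESeq2 called the erythroid gene Hbb-bh1. The most abundant genes of the other lists were Emcn of endothelium (398 to 5530 counts in clusters and 15054 to 19446 in endothelium), embryonic globin Hbb-y (2701 counts in Sl/Sl clusters replicate 1 and 51 to 629 elsewhere), C1qb of macrophages (55 to 707 counts in clusters and 0 to 6 in endothelium) and Dppa3 of germ cells (889 counts in wild type clusters replicate 1 and 0 elsewhere). The median of the 21 other sarcomere genes was -0.92 between the wild type cell types, -0.55 between the endothelium groups and 0.95 between the cluster groups.

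The genes whose pattern was most like that of the members were found by Pearson correlation, over the 8 libraries, of log2(CPM + 1) with the mean of the 10 members. They were Ebf2 (r = 0.96), Olfml1 (0.96), Mc2r (0.94), Gpr85 (0.94), Mgat3 (0.93), Clstn2 (0.92), Acbd4, Glis1, Ppp1r3d and Apela (0.91 each). Each had its highest count in Sl/Sl clusters replicate 2 and 0 or 1 count in replicate 1, so the likeness rests mostly on 1 library. Ebf2, a transcription factor, had 252 counts there and 14 at most elsewhere. The members' own correlations with their mean ran from 0.28 for Tnnt2 to 0.89 for Myl1, and Actc1, at 0.63, was below 7 of them.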

How the data were processed

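RNA-Seq was done on 8 samples of 100 sorted cells. Per the labels and the study's methods, the authors aligned 75 bp read pairs to mm9 with STAR 2.4.2a and counted them per gene with featureCounts of Subread 1.4.5. The deposited values are raw counts, without normalization, with exon coordinates and length. Gene annotation, strand setting and multi-mapping are not given in the sources used here. Columns were assigned by the sample titles, and 27 names turned into dates were kept but are not named.

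From the counts, edgeR 4.0.16 and limma 3.58.1 (R 4.3.3) fitted 13908 genes in all 8 libraries (TMM factors, filterByExpr on the 4 groups, quasi-likelihood test, Benjamini-Hochberg threshold of 0.1 as in the study's methods). CPM and RPKM used plain totals, and a count of 0 allows up to 3 counts. The members and gene lists were chosen with earlier results of these data known. The genes named were the members, Kitl, the 3 most abundant genes per length of each muscle list, cardiac and skeletal genes at 0 in clusters, the most abundant gene of each other list, and the 10 genes most like the members. Others are marked as named afterwards. Marker lists covered 6 muscle groups and endothelial, hematopoietic, mesenchymal, erythroid, macrophage and germ cells. Promoter and exon sequences were matched to NCBIM37. Alternatives were DESeq2 1.42.0, RLE factors, 2 other filters, a threshold of 0.05, fits on 4 libraries, a replicate block and leaving out each library. A fit of both tested comparisons without Sl/Sl clusters replicate 2 was chosen after seeing the data.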

Additional observations from a re-analysis of the deposited data

Results flagged for a closer look

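The libraries of Actc1 were ordered by genotype in opposite ways in the 2 cell types. Both Sl/Sl cluster libraries (4078 and 4692 counts) were above both wild type cluster libraries (61 and 162), whereas both Sl/Sl endothelium libraries (7 and 115) were below both wild type endothelium libraries (247 and 250). Over all genes tested 16.5% showed the first order and 15.3% the second, and the share of genes with both was not counted. The fitted log2 fold change of Sl/Sl over wild type was higher in clusters by 6.88 than in endothelium, and leaving out 1 library gave 5.92 to 10.39, the highest without Sl/Sl endothelium replicate 2. The difference was not tested, because Actc1 was chosen on the Sl/Sl cluster libraries.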

How the results depend on the processing

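No member passed the threshold in edgeR with the filter, and other settings called a few. Without a filter all 17077 genes with a count were tested. In endothelium 1 member, Actc1, was then called, as were 65 of all genes. Between the wild type cell types 3 members (Acta1, Actc1 and Tnnc1) were called, as were 1990 of all genes. DESeq2 called 1 member there, Tnnt2. Over all genes, DESeq2 called 178 in endothelium, 2613 between wild type cell types and 175 in clusters, no filter gave 65, 1990 and 253, at least 10 counts in every library gave 9 in clusters, 4 libraries gave 2 in endothelium, and a threshold of 0.05 gave 657 between wild type cell types. Leaving out 1 library gave 391 to 1035 calls there (391 without wild type clusters replicate 2, 473 and 492 without wild type endothelium replicates 1 and 2), 0 to 8 in clusters (8 without wild type clusters replicate 1, 6 without Sl/Sl clusters replicate 2) and 0 in endothelium.

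The median of the members moved to -0.32 in endothelium and 1.67 in clusters with at least 10 counts in every library, which fewer members pass, and to -0.34 in endothelium and 1.47 between wild type cell types on 4 libraries. Leaving out 1 library gave -1.29 to 1.38 in endothelium, 0.18 to 1.89 between wild type cell types and 0.15 to 5.28 in clusters.

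Same-numbered libraries did not deviate together in every pair of groups (r from -0.11 to 0.16), which does not show whether a number stands for a shared sort. With the replicate block the medians were -0.60 in endothelium and 2.13 between wild type cell types, 8 genes were called in clusters, and the sign turned for Myl1 (-1.23) and Des (-2.42) in endothelium and for Tnni1 (0.63), Myl1 (4.43) and Des (4.21) between wild type cell types.

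Leaving out 1 library turned uncalled members. In endothelium the ranges were -5.18 to -0.71 for Actc1 and 0.21 to 9.67 for Ttn, which both kept their sign. The other ranges there were -1.64 to 2.97 for Acta1, -2.11 to 1.09 for Tnnc1, -1.27 to 0.58 for Tnnt1, -0.36 to 2.20 for Tnnt2, -6.90 to 0.28 for Tnni1, -4.39 to 9.07 for Myl1, -2.23 to 0.50 for Myl4 and -5.31 to 8.37 for Des. Between wild type cell types they were -0.70 to 1.54 for Tnnt1, -0.91 to 1.65 for Tnni1, -5.48 to 4.32 for Myl1 and -6.19 to 5.23 for Des. Where an arm kept 1 library, that library was taken to vary like the other groups. The cause of these changes was not tested. The comparisons tested kept their counts of members called, 0, without Sl/Sl clusters replicate 2. The 2 libraries a group and the low counts of many members limit the precision of these values.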
